A study of Caenorhabditis elegans with 2 samples.

Results

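The fbxb genes are a family of F-box protein genes of Caenorhabditis elegans, and their promoters were examined here for binding sites of the hypoxia-inducible factor HIF-1. Members were chosen by their symbol, fbxb- followed by a number, among protein-coding genes of the WBcel235 assembly (ce11). This gave 104 members of 19985 protein-coding genes. A member was called bound when the summit of a peak lay from 1000 bp upstream to 200 bp downstream of its start, so the bound members were selected on the peak positions themselves and their positions and signals are given as a description. All 104 matched a RefSeq gene by symbol. RefSeq names 66 products as F-box domain-containing proteins and 35 as F-box associated domain-containing proteins, and 3 genes carry both names. They are compact genes with few exons, with a median of 948 coding bases in 2 exons beside 987 bases in 5 exons for all nuclear protein-coding genes.

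The data are chromatin immunoprecipitation sequencing (ChIP-seq) of HIF-1 in whole hermaphrodite worms of the transgenic strain OR3350 at the L4 larval stage. All animals stably expressed HIF-1 with a GFP-FLAG tag at its C-terminus, were collected 55 h after synchronization as L1 larvae starved following bleaching, and entered precipitation with an antibody to GFP after sonication. The labels call the transgene an insertion and do not name the promoter that drives the tagged protein. The 2 biological replicates form 1 group, no oxygen condition is named, and no conditions could be compared. Since whole animals were used, the tissue in which a site was occupied cannot be read from these data, and a site occupied in few cells cannot be told apart from one weakly occupied in many.

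An F-box protein is the part of an SCF ubiquitin ligase that recognises the substrate. Its F-box binds a SKP1-like adaptor, called SKR in worms, which is joined to a cullin and a RING protein, and the rest of the protein picks the target that is marked for degradation. Nematodes carry unusually many F-box genes, most of them without a known target, and many fbxb proteins hold a second, F-box associated domain behind the F-box. HIF-1 is itself controlled through another ubiquitin ligase. When oxygen is plentiful it is hydroxylated by EGL-9 and degraded through VHL-1, and otherwise it pairs with AHA-1 and binds DNA at hypoxia response elements with the core ACGTG or GCGTG.

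The authors deposited 4 peak lists on ce11 that are used here. The thresholded list holds 631 peaks that passed an irreproducible discovery rate (IDR) step, with signal values from 54.1 to 2272.69 and a median of 77.8. The relaxed lists were meant as input to that step and by design hold background beside peaks. They contain 6541 peaks for the pooled reads, 13935 for replicate 1 and 13823 for replicate 2, with median signals of 26.4, 11.7 and 12.2. The signal is the authors' own value per peak and was read only within a list, where rank 1 is the strongest peak. The lists carry a signal but no read counts, so the depth behind a peak is unknown.

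In the thresholded list 3 of the 104 members were bound, fbxb-85, fbxb-72 and fbxb-58. They lie on chromosomes III, V and X and none belongs to a tandem cluster of the family. The sequence around the summits that carry these calls is shown first, because the hypoxia response core was absent within 50 bp of each. Most thresholded peaks lacked it at that distance too, as 289 of 631 had it (45.8%). Each run is 101 bases of ce11 on the strand of the member with the summit at base 51, and capitals mark TGCGTC or its reverse complement, the only match among the motifs searched. The first lies at chrIII:10848960-10849060 (minus strand), the second at chrV:723978-724078 (minus strand), and the next at chrX:1627095-1627195 (plus strand). The last is a further thresholded peak just outside the window of fbxb-72, at chrV:724962-725062 (minus strand).

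fbxb-85 summit: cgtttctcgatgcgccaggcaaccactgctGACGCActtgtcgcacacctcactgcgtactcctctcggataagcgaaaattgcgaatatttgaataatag

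fbxb-72 summit: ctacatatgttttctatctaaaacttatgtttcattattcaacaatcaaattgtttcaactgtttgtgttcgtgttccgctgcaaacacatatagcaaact

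fbxb-58 summit: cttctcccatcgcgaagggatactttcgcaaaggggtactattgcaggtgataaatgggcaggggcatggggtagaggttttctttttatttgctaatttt

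fbxb-72 outer summit: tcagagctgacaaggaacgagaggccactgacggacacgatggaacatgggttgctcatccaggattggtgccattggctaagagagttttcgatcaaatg

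The base composition of these stretches differed. GC content within 50 bp of the summit was 49.5% at fbxb-85, 30.7% at fbxb-72, 44.6% at fbxb-58 and 50.5% at the outer peak, beside a median of 48.5% over all 631 thresholded peaks. The summit of fbxb-72 was thus the poorest in GC of the 4.

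The gene fbxb-85 (WBGene00011267, chromosome III, 10847614 to 10848963, minus strand) encodes an F-box domain-containing protein with 858 coding bases. Its thresholded summit lay at −47 bp, where negative distances are upstream of the gene start, with a signal of 87.5 and rank 244 of 631. The peak (10848788 to 10849231) is intergenic. In replicate 1 the summit was at −79 bp with a signal of 51.34 and rank 212, and in replicate 2 it was at −47 bp with a signal of 34.13 and rank 390. Both replicates thus placed this peak among their strongest 2.82% and set its summits 32 bp apart. No other summit of any list lay in the window of fbxb-85.

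The upstream neighbour of fbxb-85 shares this promoter. It is hex-3, which encodes a beta-N-acetylhexosaminidase and runs the other way from 10849222 to 10855924, leaving 258 bases between the genes. The summit lies at −212 bp from the start of hex-3, so the peak also calls hex-3 bound, and peak position alone does not assign it to either gene.

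The gene fbxb-72 (WBGene00019243, chromosome V, 722646 to 723952, minus strand) encodes an F-box domain-containing protein with 1038 coding bases. Its thresholded summit lay at −76 bp with a signal of 86.42 and rank 248, in an intergenic peak from 723806 to 724249. Replicate 1 had summits at −80 bp (signal 50.76, rank 217) and −284 bp (20.56, rank 1369). Replicate 2 had summits at −1 bp (37.56, rank 320), −240 bp (24.03, rank 863) and −894 bp (22.89, rank 984). The strongest summits of the replicates were 79 bp apart, the widest spacing among the 3 bound members. The pooled list also held a weaker summit at −278 bp, with a signal of 44.37 and rank 928, and each replicate had a summit close to it.

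Upstream of fbxb-72, on the same strand, lies icl-1 (724332 to 728004), which encodes the glyoxylate cycle enzyme that joins isocitrate lyase and malate synthase in a single protein. There are 379 bases between the end of icl-1 and the start of fbxb-72. Binding extended into icl-1. The outer thresholded summit is at −1060 bp from fbxb-72, 60 bp beyond its window, in the coding sequence of icl-1, with a signal of 55.37 and rank 601. Replicate 1 had a summit at −1050 bp (36.97, rank 404), and replicate 2 had a weaker summit at −1101 bp (14.79, rank 3600). The stronger replicate 2 summit at −894 bp (22.89) is in the coding sequence of icl-1 too, so the replicates differed in position here. A pooled summit of 35.35 and a replicate 2 summit of 32.96 lay at −2782 bp, also in the coding sequence of icl-1. Replicate 1 had no summit at that place, but had a weak one at −2107 bp (14.81, rank 3281). None of the thresholded summits was in the promoter window of icl-1, whose start is 3976 bp from the summit nearest to fbxb-72.

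The gene fbxb-58 (WBGene00019186, chromosome X, 1628137 to 1629454, plus strand) encodes an F-box associated domain-containing protein with 699 coding bases and has no annotated 5′ UTR. Its thresholded peak (1626923 to 1627366) was the strongest of the 3, with a signal of 105 and rank 169. The summit lay at −992 bp, at the outer edge of the window. The matching replicate summits, at −1008 bp in replicate 1 (67.37, rank 128) and −1001 bp in replicate 2 (39.11, rank 286), were only 7 bp apart but fell just outside the window. The replicate calls of fbxb-58 rest instead on weaker summits, at −762 bp in replicate 1 (16.48, rank 2380) and −783 bp in replicate 2 (10.91, rank 9652), beside a pooled summit at −793 bp (30.71, rank 2156). The site itself was thus found at nearly the same place in both replicates, while its assignment to fbxb-58 depends on where the window ends. The neighbour upstream, H11E01.2, encodes a protein of the major facilitator superfamily of transporters and is on the same strand with 2752 bases between the genes. The summit lies in no other promoter window.

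**Figure D1:**
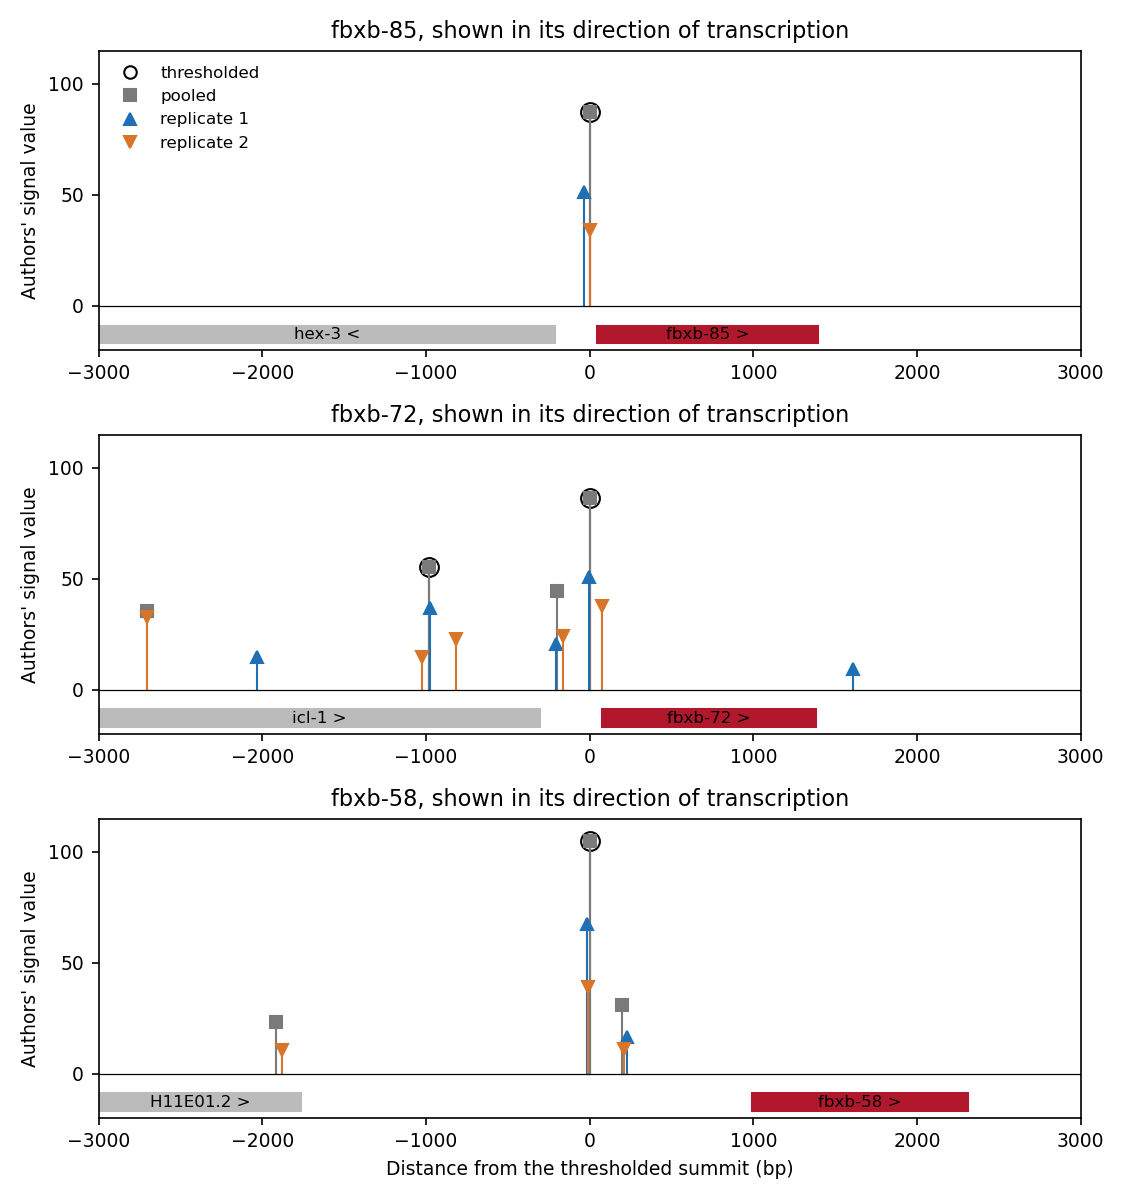
Signal value of every summit within 3000 bp of the thresholded summits of fbxb-85, fbxb-72 and fbxb-58 (y axis, the authors' signal; x axis, distance from the thresholded summit in bp, in the direction of transcription of the member). Open circles are thresholded, squares pooled and triangles replicate summits, and bars below show members in red and neighbours in grey. The replicates have summits at each thresholded peak, fbxb-85 faces hex-3 across a short gap, and further summits lie inside icl-1.

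In the relaxed lists fewer members were bound than is usual for protein-coding genes. Intervals are 95% Wilson intervals and cover the number of genes only. The 3 members bound in the thresholded list make 2.88% (interval 0.986 to 8.14%), beside 1.97% of all protein-coding genes, so that share was near the background. In the pooled list 4 members were bound, 3.85% (1.51 to 9.47%), beside 12.2% of all genes. Replicate 1 had 7 bound members, 6.73% (3.3 to 13.2%), beside 20.5%, and replicate 2 also had 7, beside 19.7%. Members bound in both replicates were 3, 2.88% (0.986 to 8.14%), beside 10.1%, and these were the same 3 genes as in the thresholded list. This match is not independent, since the thresholded list was itself made from both replicates. For fbxb-58 the replicate calls also rest on other, weaker summits. For the pooled and replicate lists the share of all genes lay above the interval of the members. No summit of any list was in the window of 92 members, 88.5%, beside 69.8% of all genes.

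**Figure D2:**
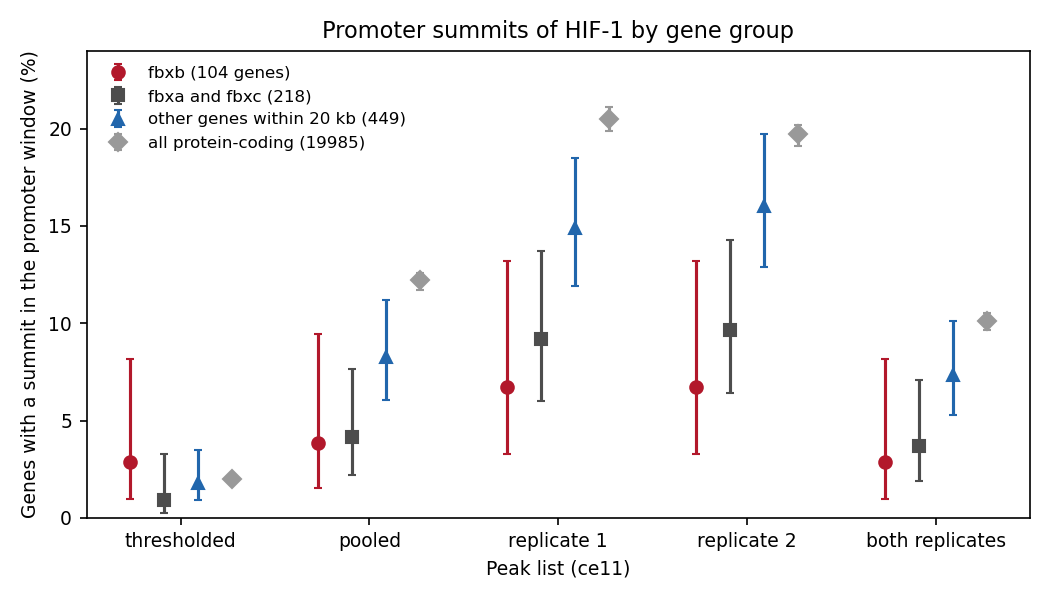
Share of genes with a summit in the promoter window (y axis, percent) by peak list (x axis) for the fbxb genes, the fbxa and fbxc genes, other protein-coding genes within 20 kb of a member and all protein-coding genes. Points are shares and bars are 95% Wilson intervals. The fbxb genes are near all genes in the thresholded list, at 2.88% and 1.97%, and below them in the relaxed lists, with 6.73% in each replicate beside 20.5% and 19.7%.

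The other 9 members with a summit had weak peaks, and none of them was bound in both replicates. The pooled list added fbxb-39 on chromosome II, with a summit at −713 bp, a signal of 21.8 and rank 6018, near the bottom of that list. Replicate 1 alone placed a summit at −75 bp of fbxb-100 (14.78, rank 3303), at −137 bp of fbxb-38 (11.22), at −109 bp of fbxb-104 (10.54) and at −880 bp of fbxb-57 (10.57). Replicate 2 alone placed a summit at −662 bp of fbxb-42 (12.41, rank 6453), at −306 bp of fbxb-88 (11.14), at 9 bp downstream of the start of fbxb-81 (12.14) and at −302 bp of fbxb-59 (11.17). These 8 replicate summits ranked between the top 23.7% and the top 67.1% of their lists, below the summits of fbxb-85 and fbxb-72 in both replicates. The summits that carry the replicate calls of fbxb-58 ranked at 17.1% in replicate 1 and 69.8% in replicate 2. The latter was thus lower in its list than any of these 8.

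Several of these weak summits lay in or near other genes. That of fbxb-42 is in the coding sequence of fbxb-43, its tandem neighbour, that of fbxb-57 in an intron of F55C9.3, and that of fbxb-38 in an intron of the antisense RNA gene anr-48. The summit of fbxb-59 is in the 5′ UTR of srbc-34, a gene of a serpentine receptor family, and lies in the windows of both genes. The summit of fbxb-88 is shared with the window of tbck-1. By RefSeq product, 6 of the 66 F-box domain-containing members (9.09%) and 6 of the 35 F-box associated members (17.1%) had a summit in some list, beside 30.2% of all protein-coding genes. The difference between these groups was not tested.

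**Figure D3:**
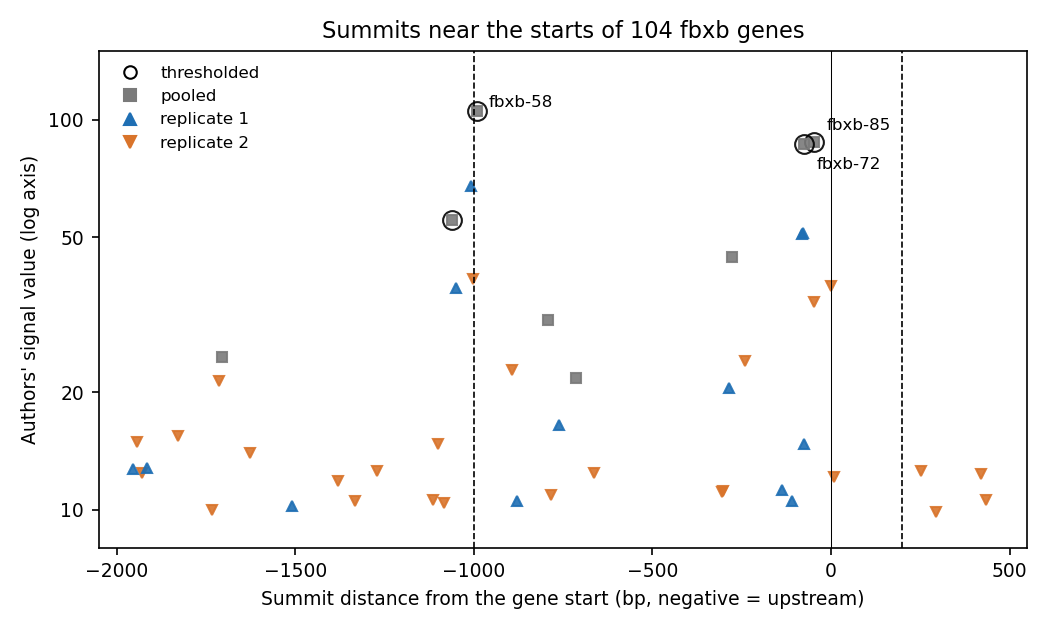
Signal (y axis, log scale) against distance from the gene start (x axis, bp, negative upstream) for every summit within 2000 bp upstream and 500 bp downstream of an fbxb gene, by list. Dashed lines bound the promoter window. The strongest summits in each list belong to fbxb-85, fbxb-72 and fbxb-58, and the thresholded summit of fbxb-58 sits at the edge of the window. Replicate summits of the other members in this range reach at most 21.34, above the weakest replicate 2 summits of fbxb-72 and fbxb-58.

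Beyond the window, thresholded peaks were far from most members. After the outer peak of fbxb-72, the next nearest to the edge of a window belonged to fbxb-75 and fbxb-74, 3659 bp and 5546 bp beyond it (−4659 bp and −6546 bp from the starts). These distances refer to 1 peak on chromosome IV (summit 4445836, signal 68.33, rank 385), which lies in the windows of wapl-1, a cohesin release factor gene, and htz-1, the gene of the histone variant H2A.Z. The median distance from a member's start to the nearest thresholded summit was 281 kb, beside 74 kb for all nuclear protein-coding genes. It was 16.6 kb beside 6.74 kb in the pooled list, 5.11 kb beside 2.62 kb in replicate 1, and 5.05 kb beside 2.61 kb in replicate 2. By these medians, summits were farther from members than from all genes in every list. Members of a cluster can share the same nearest summit, and these distances were not tested.

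Summits within the genes were also few. None of the members had a thresholded summit within the gene, beside 0.871% of all genes. A pooled summit lay within 1 member, fbxb-96, with a signal of 24.6 (0.962% of members, beside 13.7% of all genes). Replicate 1 had summits within 6 members (5.77%, beside 28.3%) and replicate 2 within 13 (12.5%, beside 28.6%). Members are short genes, with a median span of 1165 bp beside 2027 bp for all nuclear genes, and the part of gene length in these shares was not tested.

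Nearby genes outside the fbxb family were compared because these median distances were longer for members. Only members were left out, so other F-box genes could be among them. Of 449 other protein-coding genes with a start within 20 kb of a member, 8 were bound in the thresholded list, among them hex-3, wapl-1 and htz-1. That share, 1.78% (Wilson interval 0.906 to 3.48%), was near the 1.97% of all genes. The shares were 8.24% in the pooled list, 14.9% in replicate 1, 16% in replicate 2 and 7.35% in both replicates. Each of these relaxed shares was between that of the members and that of all genes.

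Most members stand in arrays. By chromosome, 58 are on II, 16 on V, 10 on I, 9 on IV, 8 on III and 3 on X. Of those on II, 57 start between 0.583 and 4.83 Mb, on the left arm, and 13 of those on V start beyond 19 Mb, near the right end. Taking neighbouring members with starts at most 10 kb apart as a cluster, 68 members form 20 tandem clusters and 36 stand outside them. All 3 thresholded members were outside clusters. In the pooled list 1 bound member was in a cluster and 3 were outside, and each replicate had 2 in clusters and 5 outside. Over all lists, 5 of 68 clustered members and 7 of 36 others had a summit, beside 30.2% of all protein-coding genes, and the difference between clustered and other members was not tested. A protein-coding start facing away within 1000 bp, as for fbxb-85 and hex-3, was present at 26 members, beside 17.7% of all protein-coding genes, and for 10 of the 26 that neighbour was itself a member.

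The clusters of 5 or more genes were taken one by one. The cluster of 7 genes on V, fbxb-117, fbxb-57, fbxb-60, fbxb-62, fbxb-63, fbxb-61 and fbxb-64, spans 30.66 kb and had 1 bound member, fbxb-57 in replicate 1. The 5 genes fbxb-17, fbxb-26, fbxb-25, fbxb-18 and fbxb-19 on II span 12.79 kb and had no summit in a window in any list. No window summit was found either for the 5 genes fbxb-107, fbxb-106, fbxb-108, fbxb-105 and fbxb-111 on II, over 16.23 kb. Within genes of these clusters, replicate 1 had the same summit inside fbxb-18 and fbxb-19, which overlap. Replicate 2 had summits in fbxb-26, fbxb-18, fbxb-107 and fbxb-57. In fbxb-18 the replicate summits lay 683 bp (replicate 1) and 858 bp (replicate 2) downstream of the start. None of these genes held a pooled or thresholded summit.

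**Figure D4:**
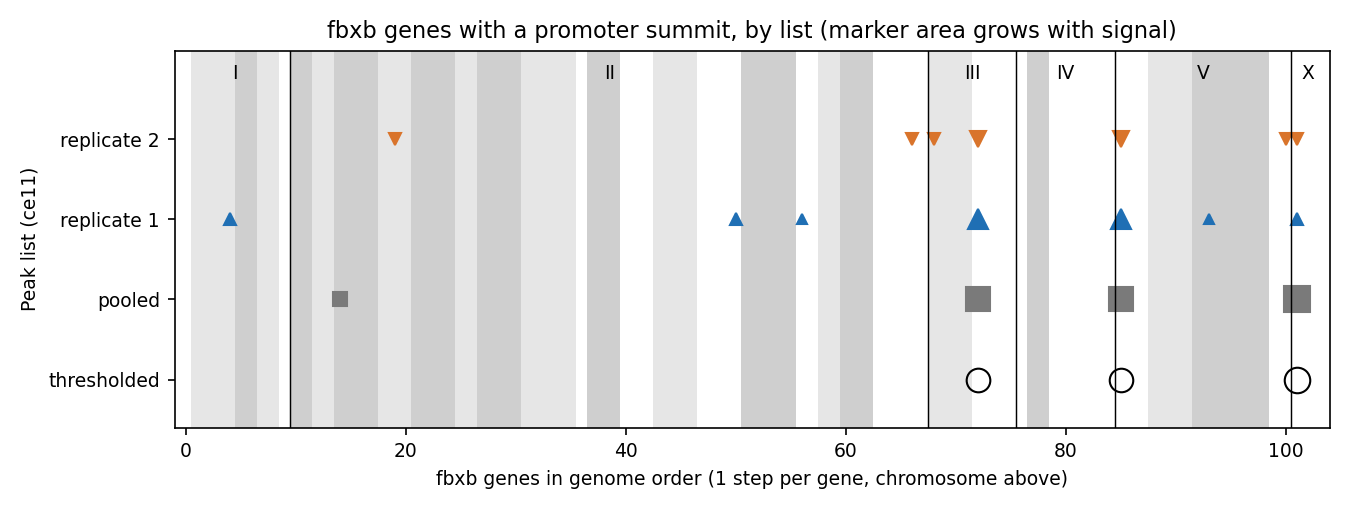
The 104 fbxb genes in genome order (x axis, 1 step per gene, chromosome named above) with a marker where a summit lies in the promoter window, by peak list (y axis). Marker area grows with signal and grey bands are tandem clusters. The 3 genes marked in every list stand outside the bands, and the remaining markers are small and appear in 1 list each.

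Members of such arrays can be near copies, so the windows were examined for repeated sequence. In the 1201-base windows of members a median of 96.67% of the words of 32 bases occurred nowhere else in the genome, with a lowest value of 42.91%, beside a median of 100% for all nuclear genes. Over 90% of the words were unique in 72 members (69.2%, beside 85.8% of all genes). Among these 72 members, 3 were bound in the thresholded list (4.17%, beside 2.07% of all genes above the same limit), 4 in the pooled list (5.56%, beside 13.1%), 7 in replicate 1 (9.72%, beside 22.1%) and 6 in replicate 2 (8.33%, beside 21.3%). The 95% Wilson interval of the members was 2.18 to 13.4% in the pooled list and held the share of all genes. It was 4.79 to 18.7% in replicate 1 and 3.88 to 17% in replicate 2, below that share. In both replicates 3 of the 72 were bound (4.17%, interval 1.43 to 11.5%), and this interval held the 10.9% of all genes. The read length is unknown here, so how many reads were lost in the repeated windows is unknown.

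The 3 bound members had windows with 100%, 94.27% and 96.5% unique words for fbxb-85, fbxb-72 and fbxb-58. A match of at least 200 bp at 80% identity or more to the window of another member was found for 28 members, and for 19 of them the best match was in the same cluster. The most alike pair was fbxb-35 and fbxb-71, with 91.57% identity over 534 bp, and neither was bound in any list. Of the thresholded members only fbxb-58 had such a match, to fbxb-2 with 86.67% identity over 240 bp, at −606 to −370 bp and so not over its summit.

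The core ACGTG or GCGTG was searched on both strands. It was in 0 of the 3 thresholded promoter peaks of members within 50 bp of the summit, while 143 of all 310 thresholded promoter peaks had it there (46.1%). Within 200 bp it was found at 2 of the 3, beside 76.1%. The nearest core was 362 bp from the summit of fbxb-85, 105 bp from that of fbxb-72 and 114 bp from that of fbxb-58, beside a median of 57 bp over thresholded promoter peaks. These cores are printed below on the strand of the member with the core in capitals. That of fbxb-85, at chrIII:10849360-10849384, is in the coding sequence of hex-3. That of fbxb-72 is at chrV:724121-724145. That of fbxb-58, at chrX:1627019-1627043, is on the opposite strand, so its capitals read CACGT, and it lies beyond the window.

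fbxb-85 nearest core: cacgaatctcGCGTGagttgtcgtc

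fbxb-72 nearest core: catctatgaaGCGTGaaaattgaag

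fbxb-58 nearest core: gaaccgggaaCACGTtgcaaaaatg

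Over whole promoter windows the core was common. It was in 78 of 104 member windows (75%), beside 82.1% of the windows of 19973 nuclear genes, with a median of 1 beside 2 per window. Members in clusters had it in 73.5% and those outside in 77.8%. The window of fbxb-72 held 4, that of fbxb-85 held 1 and that of fbxb-58 held 0.

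A pair of other motifs was searched. TGCGTC or its reverse complement was within 50 bp of the summit at fbxb-85 alone, beside 17.4% of thresholded promoter peaks, and in 21.2% of member windows beside 25% of all. GAGAGA or its reverse complement was at none of the 3 summits, beside 19.4% of promoter peaks, and in 59.6% of member windows beside 50.9%. These motifs were added after values of these data had been seen, and counts over 3 peaks do not separate the members from other promoter peaks.

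The related families fbxa and fbxc were bound as follows. Of 218 genes, 2 were bound in the thresholded list (0.917%), 9 in the pooled list (4.13%), 20 in replicate 1 (9.17%), 21 in replicate 2 (9.63%) and 8 in both replicates (3.67%). The thresholded genes were fbxa-108, with a summit at −1 bp and a signal of 56.42 (rank 586), and fbxa-83, at −797 bp with 56.31 (rank 587). Both ranked below fbxb-58, fbxb-85 and fbxb-72. None of the 48 fbxc genes was bound in the thresholded list (Wilson upper bound 7.41%). The chemoreceptor family srh, unrelated to ubiquitin ligases, is likewise large, and of its 220 genes 2 were bound in the thresholded list, 16 in replicate 1 (7.27%) and 19 in replicate 2 (8.64%). In the relaxed lists the fbxa and fbxc genes and the srh genes thus also had shares below those of all genes. In the thresholded list the Wilson interval of the fbxb genes was 0.986 to 8.14%. It was 0.252 to 3.28% for fbxa and fbxc and 0.25 to 3.25% for srh. These intervals held the 1.97% of all genes, so these counts do not set the fbxb genes apart from those families. The str family, 193 genes, was also compared as an unlike family. It had 0 bound in the thresholded list, with an interval of 0 to 1.95%, just below the 1.97%. Its shares were 3.11% in the pooled list, 10.9% in replicate 1 and 9.84% in replicate 2. No difference between the families was tested.

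The partners of F-box proteins were also looked up. Of 25 listed SCF core genes, the SKR adaptors, cullins and RING proteins, 24 were annotated as protein-coding, and none was bound in the thresholded or pooled list (Wilson upper bound 13.8%, beside 1.97% and 12.2% of all genes). At this number of genes neither count stands apart from the share of all genes. In the replicate lists weak summits were at skr-16 (10.1), rbx-1 (11.74) and rbx-2 (9.503) in replicate 1 and at skr-5 (12.26) in replicate 2. A further 11 named F-box genes were listed with earlier results of these data known. Of these, 1 was bound in the thresholded list, fbxl-1, at −105 bp with a signal of 59.21 and rank 526. That share was 9.09%, and its Wilson interval, 1.62 to 37.7%, held the 1.97% of all genes. The genes lin-23 and sel-10, whose products are the worm relatives of beta-TrCP and FBW7, had pooled summits of 33.85 and 29.21 and summits in both replicates. The gene xrep-4 had a pooled summit of 30.27 and one in replicate 2, and dre-1 had one in replicate 2 alone (13.18). In all, 4 of these 11 genes were bound in the pooled list (36.4%, Wilson interval 15.2 to 64.6%, beside 12.2% of all genes). Replicate 1 had 3 bound (27.3%, interval 9.75 to 56.6%, beside 20.5%) and replicate 2 had 5 (45.5%, interval 21.3 to 72%, beside 19.7%). In both replicates 3 were bound (27.3%, interval 9.75 to 56.6%, beside 10.1%). Unlike those of the fbxb genes in the relaxed lists, these shares were above the share of all genes. The intervals of replicate 1 and of both replicates held that share. The difference was not tested, and a list chosen with earlier results known gives no independent contrast. The 36 MATH-BTB adaptor genes of the bath family serve cullin CUL-3 rather than the SCF. Of these, 1 was bound in the thresholded list (2.78%, Wilson interval 0.492 to 14.2%), near the 1.97% of all genes. Their shares were 11.1% in the pooled list, 13.9% in replicate 1 and 8.33% in replicate 2. The bound gene was bath-44, at −747 bp with a signal of 85.14 and rank 256 and replicate signals of 51.63 and 30.21. Its signals were close to those of fbxb-85 and fbxb-72.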

How the data were processed

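Per the deposited descriptions, the authors made the relaxed lists, of peaks and background as input for IDR, from the alignments of each replicate or of both pooled, with 1 control that was not analysed here. Not given in the sources used here are the aligner, the caller of peaks, software versions and the threshold of the IDR step. Each peak has a deposited signal, with a formula not stated, and a deposited −log10 q-value, which reaches a shared ceiling (2.11 in the thresholded list) and was not used. Lists on ce10 were not used.

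Summits, the peak start plus the offset, were set against Ensembl release 115 gene models on WBcel235 with 1-based coordinates, using Python 3.11.15, numpy 2.4.6 and scipy 1.17.1, and figures were drawn with matplotlib 3.10.9. Windows of members were compared with blastn 2.17.0 at an e-value limit of 1e-05. Sequences were read from the RefSeq genome of the same assembly. The promoter call and the core search were tested on simulated data. No test was made, since the members and lists were chosen with earlier results of these data known and there is 1 group. Genes named in full were those with a thresholded summit and neighbours sharing it. Other members with a summit, the 3 members with the nearest thresholded summit outside the window, and clusters of 5 or more were named with their values. Nearby genes, word uniqueness, the nearest core, distances to summits and the split by RefSeq product were added after seeing the data, as was every named gene outside this rule. Alternatives covered the window, each replicate alone, the gene start, the stronger 50% of peaks, core distance, cluster spacing and window likeness.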

Additional observations from a re-analysis of the deposited data

How the results depend on the processing

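With the window at 500 bp upstream to 100 bp downstream, fbxb-58 was no longer bound. That left 2 members in the thresholded list, beside 1.44% of all genes. The pooled list also lost fbxb-39 and kept 2, beside 8.32%. Next, as many strongest peaks of 1 replicate were taken as the thresholded list holds. This gave 2 members without replicate 1, beside 1.85% of all genes, and 2 without replicate 2, beside 1.94%, again without fbxb-58. The wider window (2000 bp upstream, 500 bp downstream), the nearest gene start, any transcript start and the stronger 50% of peaks each gave the same 3 thresholded members. Shares of all genes at these settings were, in order, 2.71%, 2.74%, 2.19% and 0.996%. The wider window raised replicate 2 from 7 to 22 members, beside 31.7% of all genes, but replicate 1 to 10, beside 32.6%. It raised both replicates to 5, beside 18%, adding fbxb-100 and fbxb-57. The replicate summits of these added members were far apart. Those of fbxb-100 lay at −75 bp in replicate 1 and −1625 bp in replicate 2. Those of fbxb-57 lay at −880 bp in replicate 1 and 421 bp downstream of the start in replicate 2. The stronger 50% of peaks left 4 members in replicate 1, beside 12.5% of all genes, and 3 in replicate 2, beside 11.8%. The core was at 2 of 3 summits within 200 bp and at 0 within 25 bp. Like windows fell to 5 members at 90% identity and rose to 39 with matches of 100 bp. Clusters held 57 members at a spacing of 5 kb and 76 at 20 kb, none of them thresholded. No paired analysis was possible because there is 1 group. Depth is unknown, so a member without a peak cannot be called unbound.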
